A study of Mus musculus with 180 samples.

Results

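The 10 genes described here are imprinted genes known for their part in fetal growth: Igf2, H19, Dlk1, Mest, Grb10, Peg3, Plagl1, Meg3, Ndn and Igf2r. They were chosen by name, and all 10 are among the 14825 genes of the deposited table. They were followed across 4 populations of sorted single cells from mice on a C57BL/6 background, each cell being 1 library. FL HSC (56 cells) were fetal liver haematopoietic stem cells of Day14.5 embryos, which were sorted for CD45.2, Sca1, c-kit, CD150 and CD11b and against lineage markers. BM HSC (36 cells) were bone marrow haematopoietic stem cells and WT-MPP (41 cells) were bone marrow multipotent progenitors in the CD48-Sca1+c-kit+CD150-CD135+ gate, both from 8-week-old mice. These 3 populations came from Rosa LSL-Hoxb5-EGFP/+ mice, which carry an inducible Hoxb5-EGFP cassette but no Cre, so the cassette was silent. CD11b+CD48+SK cells (47 cells) were donor-derived Sca1+c-kit+ cells that carry CD11b and CD48. They were taken at Week 8 after irradiated CD45.1+ primary recipients had been given MPP of Mx1cre/Rosa LSL-Hoxb5-EGFP/+ mice, in which injected pIpC switches on Cre through the Mx1 promoter and the GFP signal marks cells with ectopic Hoxb5. The CD11b+CD48+SK cells therefore differ from WT-MPP in the Mx1cre genotype, the active cassette, pIpC, transplantation, the irradiated host and the sort gate, since WT-MPP were taken without CD48 and CD11b, and these cannot be told apart here. The labels do not tie cells to animals. Each population is therefore 1 sample, no test between populations was possible, and the intervals below cover the counting of cells only. Where intervals are said to overlap or to lie apart, this describes these cells and is no test between populations. Source labels name bone marrow for every cell, while the titles and the methods give fetal liver for FL HSC, which was followed here.

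Genomic imprinting is the marking of a gene in the germ line so that only the maternal or only the paternal copy is used. Igf2, Dlk1, Mest, Peg3, Plagl1 and Ndn are used from the paternal copy, and H19, Meg3, Igf2r and, in most tissues, Grb10 from the maternal copy. Many of these genes are highly active in embryonic and placental tissues and are turned down after birth. In blood, the locus of Igf2 and H19 has been linked to the quiescence of adult stem cells, and fetal liver haematopoiesis takes place among cells that themselves make IGF2 and DLK1. The values here are levels of both copies together and say nothing of which copy was read.

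On GRCm38, the assembly named mm10 in the labels, H19 lies on chromosome 7 at 142575529-142578143 and Igf2 at 142650766-142666816, both on the minus strand with 72.6 kb between them. Dlk1 (chr12:109452823-109463336) and Meg3 (chr12:109541001-109571726) share the plus strand of chromosome 12 with 77.7 kb between them. Ndn (chr7:62346569-62350262) and Peg3 (chr7:6703892-6730431) lie elsewhere on chromosome 7. Grb10 is at chr11:11930508-12038683, Igf2r at chr17:12682406-12769664, Mest at chr6:30723547-30748465 and Plagl1 at chr10:13060504-13131694. H19 and Meg3 are annotated as long non-coding RNA and the other 8 as protein-coding genes.

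The promoters of 5 members are printed because these genes were frequent in at least 1 natural population and were listed at 0 in every CD11b+CD48+SK cell. Each run of 300 bases covers 250 bases before to 50 bases after a start site in RefSeq (GRCm38.p6), is written 5′ to 3′ on the strand of the gene, and has each CpG in capitals. CpG are the bases at which DNA methylation, the mark of imprinting, sits. Where a gene had several start sites the one with the most CpG is shown. The starts printed for Igf2, Grb10 and Ndn lie inside the spans given above. Of the members, 9 had entries, 16 in all, and H19 had none.
Igf2 promoter, chr7:142658755-142659054, minus strand: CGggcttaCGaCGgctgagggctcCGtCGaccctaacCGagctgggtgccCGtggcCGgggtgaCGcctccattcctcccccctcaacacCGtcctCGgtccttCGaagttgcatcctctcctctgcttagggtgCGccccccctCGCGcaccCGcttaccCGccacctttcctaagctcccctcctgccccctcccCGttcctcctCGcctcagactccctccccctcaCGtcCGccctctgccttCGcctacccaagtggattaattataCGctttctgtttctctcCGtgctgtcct
Dlk1 promoter, chr12:109452573-109452872, plus strand: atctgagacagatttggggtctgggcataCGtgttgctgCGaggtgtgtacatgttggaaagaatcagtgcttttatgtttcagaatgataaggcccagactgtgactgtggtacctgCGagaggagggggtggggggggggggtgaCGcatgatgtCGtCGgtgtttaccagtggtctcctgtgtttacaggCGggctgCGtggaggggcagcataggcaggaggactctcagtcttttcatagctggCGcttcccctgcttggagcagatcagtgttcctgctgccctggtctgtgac
Grb10 promoter, chr11:12037371-12037670, minus strand: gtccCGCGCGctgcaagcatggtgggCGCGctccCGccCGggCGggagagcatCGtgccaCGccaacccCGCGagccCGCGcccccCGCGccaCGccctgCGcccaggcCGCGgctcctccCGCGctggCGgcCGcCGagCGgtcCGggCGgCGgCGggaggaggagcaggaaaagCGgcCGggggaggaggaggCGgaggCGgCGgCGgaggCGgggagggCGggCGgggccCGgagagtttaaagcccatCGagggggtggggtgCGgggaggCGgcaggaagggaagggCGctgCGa
Meg3 promoter, chr12:109540746-109541045, plus strand: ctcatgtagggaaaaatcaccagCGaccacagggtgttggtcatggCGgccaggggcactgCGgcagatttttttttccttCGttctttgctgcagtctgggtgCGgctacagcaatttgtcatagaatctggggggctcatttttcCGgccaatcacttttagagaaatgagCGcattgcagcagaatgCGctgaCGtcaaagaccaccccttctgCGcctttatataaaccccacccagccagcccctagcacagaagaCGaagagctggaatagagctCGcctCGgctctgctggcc
Ndn promoter, chr7:62348027-62348326, plus strand: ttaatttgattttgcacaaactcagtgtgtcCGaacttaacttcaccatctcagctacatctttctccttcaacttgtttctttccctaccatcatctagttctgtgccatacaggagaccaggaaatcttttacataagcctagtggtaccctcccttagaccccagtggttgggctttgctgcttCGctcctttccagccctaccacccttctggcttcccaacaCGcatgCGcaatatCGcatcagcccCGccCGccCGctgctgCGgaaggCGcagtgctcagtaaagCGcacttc

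The Grb10 run holds 45 CpG, a number reached by 1.93% of the 32851 mouse promoters of the same length, whose median is 7. The Igf2 run holds 24, the Meg3 run 13, the Ndn run 11 and the Dlk1 run 9. The starts not printed hold fewer CpG, 9 for Grb10, 14, 7 and 2 for Igf2 and 1 for Meg3. TATAAA, the letters of the TATA box, occurs in the Meg3 run in 2 overlapping matches, 1 on each strand, and in none of the other 15 member entries. It is found on either strand in 13.6% of all promoters. GGNGGCAG, part of the motif of CTCF, the protein that insulates the Igf2 and H19 locus, occurs in the Igf2 and Grb10 runs and in 12.6% of all promoters. GGGGCCCC, a palindrome of the kind PLAGL1 binds, occurs in the Peg3 entry alone and in 1.08% of all promoters. These are matches of letters, and methylation and binding were not measured.

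H19 is also the host transcript of miR-675, whose hairpin lies within an H19 exon. Its mature forms are shown with the seed, bases 2 to 8, in capitals.
miR-675-5p, chr7:142577112-142577133, minus strand: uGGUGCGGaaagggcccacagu
miR-675-3p, chr7:142577078-142577099, minus strand: cUGUAUGCccuaaccgcucagu
Mature miRNAs were not measured by this assay, and the table's own entry for Mir675 reached 1.66 TPM (transcripts scaled to the length of the gene and to 1000000 per cell) in 1 BM HSC and no more than 0.26 TPM in any FL HSC.

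A gene was called present in a cell at a TPM of 1 or more. The number of genes present per cell, used in place of the unknown depth, had a median of 5206.5 in FL HSC, 4441.5 in BM HSC, 3844 in WT-MPP and 4514 in CD11b+CD48+SK cells. By the median, CD11b+CD48+SK cells thus held more genes than WT-MPP and about as many as BM HSC. Of 10 genes that every cell uses, such as Actb and B2m, 9 were above 0 in every cell and Gapdh was listed at 0 in 1 WT-MPP cell. B2m and Gapdh had been used in the paper to check the amplified cDNA by qPCR before sequencing, so their detection was partly fixed beforehand. None of this shows how often genes at the level of the members were missed. The sort markers Kit and Ly6a were present in 48 and 51 of 56 FL HSC, 31 and 36 of 36 BM HSC, 35 and 40 of 41 WT-MPP, and 33 and 43 of 47 CD11b+CD48+SK cells. Cd48 was present in 47 of 47 CD11b+CD48+SK cells and Itgam, which encodes CD11b, in 17 of them and in 9 FL HSC.

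The number of members seen in 10% or more of cells formed a descending series. Single members did not all follow it, Grb10 being most frequent in BM HSC and Mest in WT-MPP. FL HSC had the most members, and BM HSC had Ndn, Grb10, Meg3 and Igf2r. WT-MPP had chiefly Ndn and Grb10, and CD11b+CD48+SK cells had none of the 10 in 10% or more of cells. The number of members in at least 10% of cells was 8 in FL HSC, 4 in BM HSC, 2 in WT-MPP and 0 in CD11b+CD48+SK cells. Of all listed genes, 66.7%, 62.8%, 55.5% and 61.4% were. Mest and Plagl1 reached that share in no population.

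**Figure D1:**
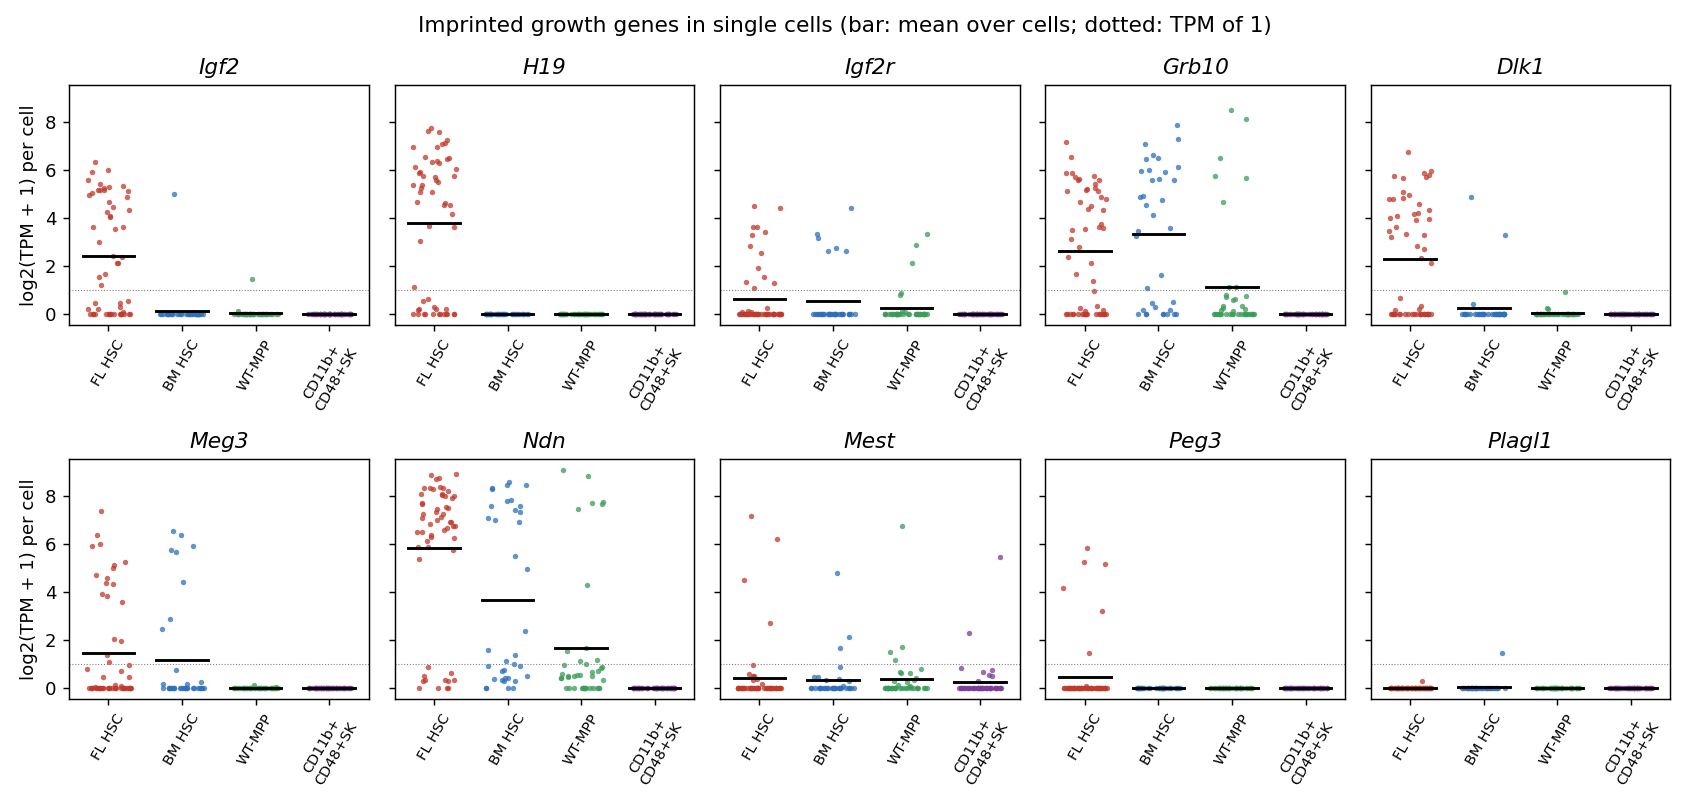
Each point is the level of a gene in 1 cell, as log2(TPM+1), for the 10 members in FL HSC (56 cells), BM HSC (36), WT-MPP (41) and CD11b+CD48+SK cells (47). The bar is the mean over cells and the dotted line a TPM of 1. In the CD11b+CD48+SK column all points lie at 0 except for Mest, while FL HSC with Ndn lie in a separate cloud from 39.96 to 482 TPM.

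Igf2 encodes insulin-like growth factor 2, a secreted growth factor of the fetus. In FL HSC its level ran from 0 to 80.9 TPM with a median of 3.36, and it was present in 32 of 56 cells (57.1%, 95% exact interval 43.2% to 70.3%). The cells that had it had a median of 22.8 TPM. A single BM HSC (31.4 TPM) and a single WT-MPP (1.75 TPM) had it, and all 47 CD11b+CD48+SK cells were listed at 0, for which the upper limit is a share of 6.38%. The FL HSC range thus overlapped the other populations only through its cells without Igf2 and through those 2 adult cells.

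H19, the non-coding partner of Igf2 at the same locus, was seen in FL HSC and nowhere else. It was present in 37 of 56 FL HSC (66.1%, 52.2% to 78.2%) with a median of 28.8 TPM over all cells and a maximum of 217. Among those 37 cells 35 were at 10 TPM or more. All 36 BM HSC, 41 WT-MPP and 47 CD11b+CD48+SK cells were listed at 0, with upper limits of 8.33%, 7.32% and 6.38%.

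Igf2r and Grb10 act on the receiving side of IGF signalling. Igf2r, the receptor that carries IGF2 to the lysosome for degradation, was low and rare, at up to 21.8 TPM in 13 of 56 FL HSC (23.2%, 12.98% to 36.4%), up to 20.3 TPM in 6 of 36 BM HSC (16.7%, 6.37% to 32.8%) and up to 9.19 TPM in 3 of 41 WT-MPP (7.32%, 1.54% to 19.9%). These 3 intervals overlap. All CD11b+CD48+SK cells were listed at 0. Airn, the antisense RNA that overlaps Igf2r and silences its paternal copy, was present in 7 FL HSC, 3 BM HSC and 1 WT-MPP. Igf2r and Airn were seen together in 2 FL HSC. The strand of the libraries is not stated, so reads of this pair may not have been told apart.

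Grb10, an adaptor that restrains insulin and IGF receptor signalling, had its highest mean log2 level in BM HSC, at 3.35, against 2.61 in FL HSC and 1.13 in WT-MPP. It was present in 23 of 36 BM HSC (63.9%, 46.2% to 79.2%), from 0 to 232 TPM with a median of 13.9, and in 32 of 56 FL HSC (57.1%, 43.2% to 70.3%), from 0 to 141 TPM with a median of 5.08. The intervals overlap, and so do the ranges. In WT-MPP 8 of 41 cells had it (19.5%, 8.82% to 34.9%), with a median of 0 over all cells and a maximum of 366 TPM. Those 8 cells were not weaker than the others, with a median of 51.9 TPM among cells that had Grb10, against 47.2 in BM HSC and 27.8 in FL HSC. The gene was listed at 0 in all 47 CD11b+CD48+SK cells.

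Dlk1 encodes a membrane protein related to the Notch ligands. Its level in FL HSC ran from 0 to 109 TPM with a median of 3.71, and 29 of 56 cells had it (51.8%, 38.03% to 65.3%). In BM HSC 2 of 36 cells had it (5.56%, 0.68% to 18.7%), at 28.8 and 8.80 TPM. No WT-MPP reached a TPM of 1, the highest being 0.871, and CD11b+CD48+SK cells were listed at 0. Its interval in FL HSC lies above that in BM HSC.

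Meg3, the non-coding RNA downstream of Dlk1, was rarer than Dlk1 in FL HSC but was also seen in several BM HSC. It was present in 18 of 56 FL HSC (32.1%, 20.3% to 45.96%; up to 163 TPM) and in 8 of 36 BM HSC (22.2%, 10.1% to 39.2%; up to 92.7 TPM), and the median over all cells was 0 in both. The intervals overlap. WT-MPP held only traces, the highest 0.0707 TPM, and CD11b+CD48+SK cells were listed at 0. Mir1906-1, which lies within Meg3 on the same strand, was present in 13 FL HSC and 4 BM HSC, each of which also had Meg3. It was also present in 1 WT-MPP, at 1.20 TPM, in which Meg3 was not present. The table may have split reads between these entries.

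Ndn encodes necdin, a MAGE-family protein that restrains cell proliferation and is known in adult stem cells. By mean TPM it was the most abundant member in FL HSC (152), BM HSC (92.6) and WT-MPP (44.9), although in BM HSC the median of Grb10 was higher. In FL HSC it ran from 0 to 482 TPM with a median of 119, and 44 of 56 cells had it (78.6%, 65.6% to 88.4%). In BM HSC it ran from 0 to 381 TPM with a median of 1.78, and 20 of 36 cells had it (55.6%, 38.1% to 72.1%). In WT-MPP it ran from 0 to 548 TPM with a median of 0.412, and 11 of 41 cells had it (26.8%, 14.2% to 42.9%). The intervals of neighbouring populations overlap, and that of FL HSC lies above that of WT-MPP.

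In the cells that had Ndn, its median level was 156 TPM in FL HSC, 165 in BM HSC and 176 in WT-MPP. Low levels of 1 to 10 TPM were found in 4 of the 20 BM HSC and 4 of the 11 WT-MPP with Ndn, and in none of the 44 FL HSC. FL HSC fell into 44 cells at 39.96 TPM or more and 12 cells below 1, with none between. All 47 CD11b+CD48+SK cells were listed at exactly 0, with an upper limit of 6.38%. Traces above 0 and below 1 TPM, which 8 FL HSC, 12 BM HSC and 16 WT-MPP had, were also missing there. Over all genes, the number with traces in a cell was also lower there (median 699) and in FL HSC (699) than in BM HSC (1445.5) and WT-MPP (1392).

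Mest, Peg3 and Plagl1 were rare. Mest, an enzyme of the alpha/beta hydrolase family, was present in 4 FL HSC (7.14%; up to 143 TPM), 3 BM HSC (8.33%; up to 26.4), 4 WT-MPP (9.76%; up to 106) and 2 CD11b+CD48+SK cells (4.26%, 0.52% to 14.54%; 43.3 and 3.92 TPM). It was the only member seen in CD11b+CD48+SK cells, and its 4 intervals overlap. Copg2, which overlaps Mest on the opposite strand, was present in 3 to 13 cells of each population, in 4 cells together with Mest. Peg3, a zinc finger protein, was seen in 6 of 56 FL HSC (10.7%, 4.03% to 21.9%; up to 56.4 TPM), with a trace of 0.0655 TPM in 1 further FL HSC, and was listed at 0 in every cell of the other populations. Plagl1, a zinc finger transcription factor that activates other imprinted genes, was present in 1 BM HSC at 1.71 TPM, with a trace of 0.236 TPM in 1 FL HSC.

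**Figure D2:**
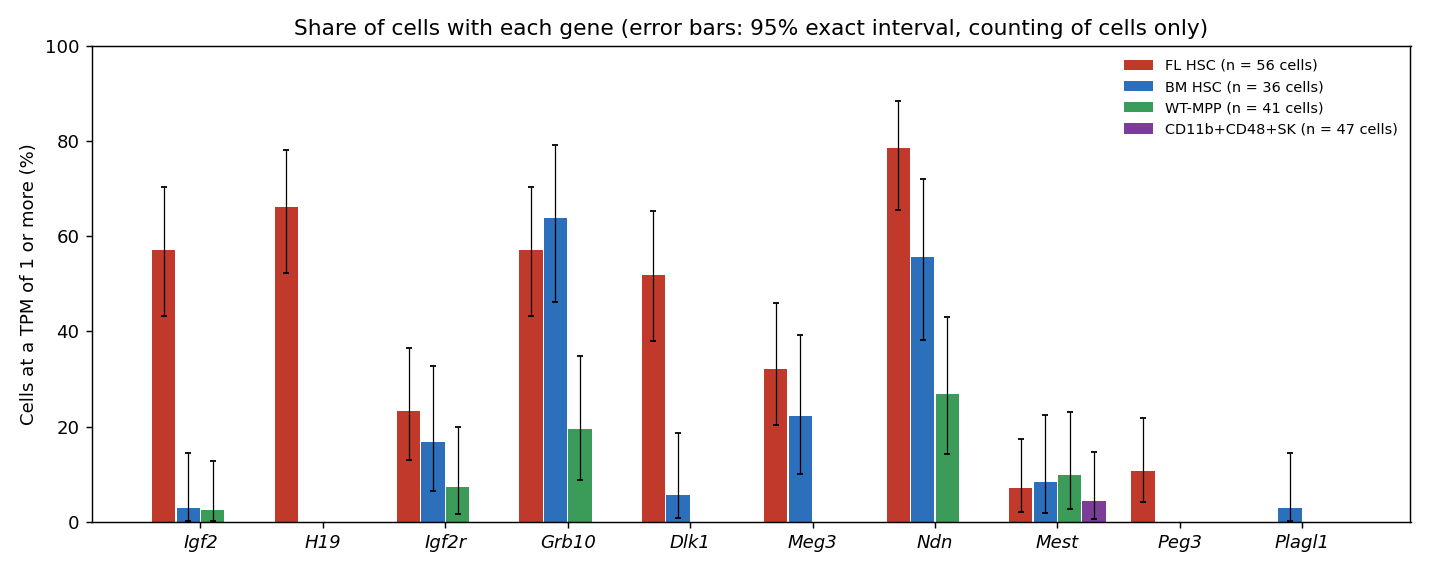
Bars give the share of cells, in percent, with each member at a TPM of 1 or more in FL HSC, BM HSC, WT-MPP and CD11b+CD48+SK cells, with 95% exact intervals for the counting of cells. Ndn steps down from 78.6% to 55.6% to 26.8% to 0%. Grb10 is at 57.1% in FL HSC and 63.9% in BM HSC, and the CD11b+CD48+SK bar is above 0 for Mest alone.

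Differences between populations were taken as the difference in mean log2(TPM+1) over cells, and a gene was counted as higher or lower from a difference of 1. With 1 sample a population this is a rule of size and not a test. For each comparison the count of members is set beside the share of all 10856 kept genes past the same size in the same direction, kept genes being those that at least 10% of cells had in some population. Of the members, 8 were kept, without Mest and Plagl1. On this scale no gene can be lower by 1 than a population in which its mean log2 level is below 1. Ndn, Grb10 and Meg3 alone reached 1 in BM HSC, and Ndn and Grb10 alone in WT-MPP. In FL HSC Igf2, H19, Dlk1, Grb10, Meg3 and Ndn did. The counts of lower members below can hold no others, and the shares of all kept genes include genes under the same limit.

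The comparison of FL HSC with BM HSC asks what differs between fetal and adult stem cells. Higher in FL HSC by 1 or more were 4 of 10 members, H19 (3.78), Igf2 (2.30), Ndn (2.15) and Dlk1 (2.04), where 25.56% of all kept genes were higher. None was lower, which only Ndn, Grb10 and Meg3 could have been, where 5.444% of all kept genes were. Grb10 had -0.74 and Meg3 0.29, but Grb10 came to -1.03 with a pseudocount of 0.1 TPM and to -1.04 in cells with a like number of genes present. With a pseudocount of 10 TPM, H19 and Ndn alone were left, with Igf2 at 0.86 and Dlk1 at 0.78. On that scale 9.61% of all kept genes were higher. The median difference of the 10 members, Mest and Plagl1 included, was 0.37 and that of all kept genes 0.31. Taken on mean TPM instead of mean log2 values, the difference of Ndn came to 0.71, and Mest (1.46) and Peg3 (1.92), each present in few cells, were higher by 1 or more.

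FL HSC against WT-MPP gave 6 of 10 members higher, against 33.89% of all kept genes, and none lower, against 3.077%. They were Ndn (4.16), H19 (3.78), Igf2 (2.40), Dlk1 (2.25), Grb10 (1.48) and Meg3 (1.43). Only Ndn and Grb10 could have been lower by 1. The median over members was 1.45 and that over all kept genes 0.56. With a pseudocount of 10 TPM 2 of the 6, H19 and Ndn, were left, with Igf2 at 0.91, Dlk1 at 0.86, Meg3 at 0.56 and Grb10 at 0.51. On that scale 14.3% of all kept genes were higher. The Grb10 difference turned to -0.18 on mean TPM, with means of 18.6 TPM in FL HSC and 21.2 TPM in WT-MPP. The WT-MPP mean was 12.5 TPM without its highest cell.

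CD11b+CD48+SK cells against WT-MPP is the comparison of the reprogrammed cells with the kind of cell transplanted. No member was higher, where 19.01% of all kept genes were. Lower were 2 of 10 members, Ndn (-1.66) and Grb10 (-1.13), where 5.011% of all kept genes were. The remaining 8 had mean log2 levels of 0.37 or less in WT-MPP and could not be lower by 1. The median was -0.04 over members and 0.21 over all kept genes. With a pseudocount of 10 TPM neither was at a difference of 1, with Ndn at -0.79 and Grb10 at -0.52. On that scale 1.58% of all kept genes were lower. With a pseudocount of 0.1 TPM Ndn and Grb10 came to -3.26 and -2.18, and on mean TPM to -5.52 and -4.47. Grb10 also fell within 1 in cells with a like number of genes present (-0.44) and without its highest cell, which left Ndn alone.

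Against BM HSC, CD11b+CD48+SK cells had 3 of 10 members lower, Ndn (-3.68), Grb10 (-3.35) and Meg3 (-1.15), where 11.79% of all kept genes were lower, and none higher, where 13.38% were. Meg3 fell short of a difference of 1 with a pseudocount of 10 TPM (-0.49), where 4.03% of all kept genes were lower. It also fell short in cells with a like number of genes present (-0.77), where 17.7% were. It also did so after scaling cells by the median ratio (-0.99) and without its highest cell (-0.99). Each of these left 2 members. On mean TPM Dlk1 and Igf2r joined the 3, where 27.7% of all kept genes were lower and 9.78% higher. Against FL HSC, 6 of 10 were lower, Ndn (-5.82), H19 (-3.78), Grb10 (-2.61), Igf2 (-2.43), Dlk1 (-2.28) and Meg3 (-1.43), where 20.94% of all kept genes were lower, and none was higher, where 4.016% were. With a pseudocount of 10 TPM 3 of these were left, Ndn, H19 and Grb10, with Igf2 at -0.92, Dlk1 at -0.86 and Meg3 at -0.56. On that scale 7.12% of all kept genes were lower. On mean TPM Mest, Peg3 and Igf2r were also lower by 1 or more, where 19.5% of all kept genes were. The median over members in the comparison with FL HSC was -1.86, and over all kept genes -0.32. All these comparisons share the CD11b+CD48+SK cells and are not independent of each other.

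WT-MPP against BM HSC, adult progenitors against adult stem cells, gave 3 of 10 members lower, Grb10 (-2.22), Ndn (-2.02) and Meg3 (-1.14), where 14.49% of all kept genes were lower. None was higher, where 2.671% were. In cells with a like number of genes present Grb10 alone was left, with Ndn at -0.82 and Meg3 at -0.77. With a pseudocount of 10 TPM Ndn alone was left, with Grb10 at -0.98 and Meg3 at -0.49. On that scale 3.41% of all kept genes were lower. On mean TPM Grb10 came to -0.80. Meg3 also fell short after scaling cells by the median ratio (-0.99) and without its highest cell (-0.99).

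Genes listed at exactly 0 in every CD11b+CD48+SK cell were also counted among genes present in stem cells. Of the 6763 genes present in 30% or more of FL HSC, 69 were listed at 0 in every CD11b+CD48+SK cell, 1.02%, and these included 6 of the 6 members that qualify: Igf2, H19, Dlk1, Grb10, Meg3 and Ndn. These members qualify by the population in which they were frequent, and Igf2, H19 and Dlk1 were in no more than 2 BM HSC and 1 WT-MPP either, so nothing is read from the count. The same holds for the next count, which Grb10 and Ndn enter through BM HSC. Of the 5859 genes present in 30% or more of BM HSC, 51 were, 0.8705%, and these included both members that qualify, Grb10 and Ndn. Of all 14825 genes, 2827 (19.1%) were listed at 0 in every CD11b+CD48+SK cell, among them 9 of the 10 members. FL HSC, BM HSC and WT-MPP had 0, 2 and 3 members at 0 in every cell, where 9.30%, 14.9% and 17.2% of all listed genes were.

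The number of genes present differed between the populations, so the shares were also taken over the 14 FL HSC, 14 BM HSC, 17 WT-MPP and 24 CD11b+CD48+SK cells with 3974 to 4751 genes present. In these cells Ndn was present in 71.4% of FL HSC, 42.9% of BM HSC and 29.4% of WT-MPP. H19 was present in 50% of FL HSC, Igf2 in 42.9%, Grb10 in 35.7%, Dlk1 in 28.6% and Meg3 in 28.6%. The same 6 members stayed lower in CD11b+CD48+SK cells than in FL HSC, with Dlk1 at -1.17 and Ndn at -5.36. The shares of all 6 in FL HSC were lower in this narrower range than over all cells.

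Per cell, the members added up to a wide spread in FL HSC. Of the 10, FL HSC had a median of 4, from 1 to 6, and every FL HSC had at least 1. BM HSC had a median of 2, from 0 to 5, WT-MPP a median of 1, from 0 to 3, and CD11b+CD48+SK cells a median of 0, where 45 cells had none and 2 had Mest. At least 3 members were present in 45 of 56 FL HSC (80.4%, 67.6% to 89.8%), in 8 of 36 BM HSC (22.2%, 10.1% to 39.2%), in 1 WT-MPP and in 0 CD11b+CD48+SK cells, with an upper limit of 6.38%. The interval of FL HSC lies above that of BM HSC. In FL HSC the number of members went up with the number of genes present (Spearman's rho 0.43 over 56 cells), whereas in BM HSC rho was 0.14, in WT-MPP -0.16 and in CD11b+CD48+SK cells -0.06. FL HSC with Igf2 had a median of 5331 genes present and those without it 4993. The difference went the same way for H19 (5283 against 4997), Dlk1 (5305 against 4997) and Grb10 (5249 against 5003), was small for Ndn (5224 against 5139) and went the other way for Meg3 (5103 against 5224). The part of the number of genes present in the spread was not tested.

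**Figure D3:**
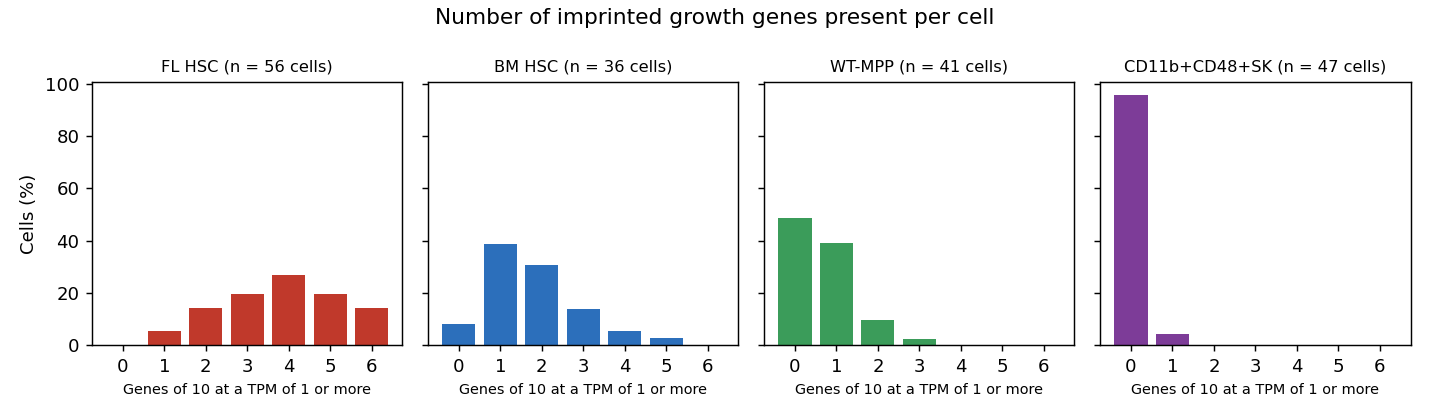
Bars give the share of cells, in percent, that had 0 to 6 of the 10 members at a TPM of 1 or more, with a panel for each population. FL HSC peak at 4 members (15 of 56 cells), BM HSC at 1 (14 of 36), WT-MPP at 0 (20 of 41) and CD11b+CD48+SK cells at 0 (45 of 47).

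Within FL HSC, the neighbouring pairs were found together to different degrees. Igf2 and H19, which share enhancers but are used from opposite parental copies, were both present in 22 cells, Igf2 alone in 10, H19 alone in 15 and neither in 9. H19 was present in 68.8% of cells with Igf2 and in 62.5% of cells without it, and rho over the 56 cells was 0.08. Dlk1 and Meg3, the other such pair, were both present in 13 cells, Dlk1 alone in 16, Meg3 alone in 5 and neither in 22. Meg3 was present in 44.8% of cells with Dlk1 and in 18.5% of cells without it, and rho was 0.37, the highest of the 28 pairs. The number of cells with both of these genes came to 8 at a threshold of 10 TPM.

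Igf2 and its clearance receptor Igf2r were both present in 7 FL HSC, and 25 cells had Igf2 without Igf2r. Igf2 and Dlk1 were together in 20 cells, where Dlk1 was present in 62.5% of cells with Igf2 and 37.5% of cells without it, though rho of their levels was 0.09. Ndn and Grb10 were together in 27 FL HSC, 13 BM HSC and 3 WT-MPP. In BM HSC 10 cells had Grb10 alone and 7 had Ndn alone, and rho of their levels was 0.04. Over the 28 pairs in FL HSC rho ran from -0.21 (Peg3 and Meg3) to 0.37 with a median of 0.08. These are descriptions over cells of 1 sample that share population and depth, and weak values in sparse data are not read as relations.

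**Figure D4:**
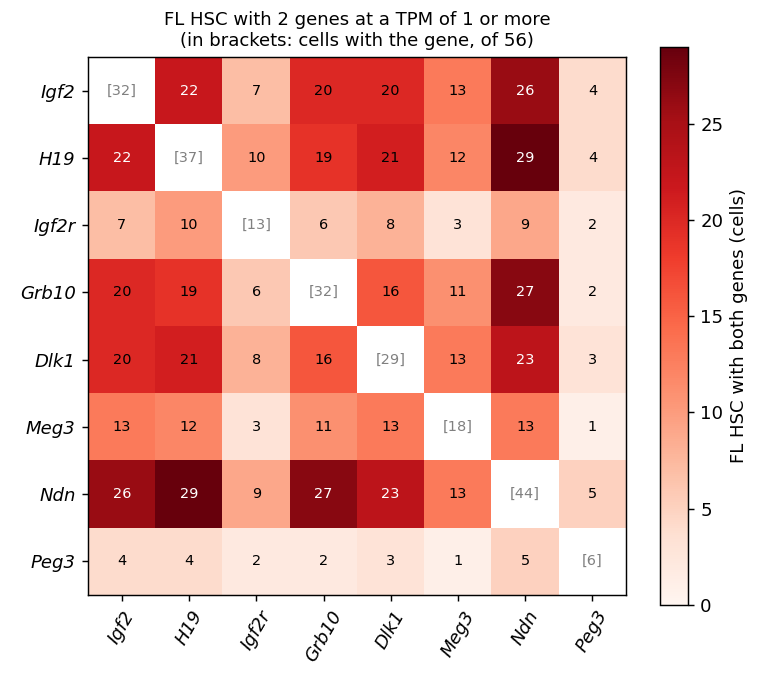
Each square gives the number of FL HSC, of 56, with both the gene of the row and the gene of the column at a TPM of 1 or more, and the diagonal in brackets the cells with the gene itself. Ndn shares the most cells with H19 (29) and Grb10 (27), and Dlk1 and Meg3 share 13.

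The genes most like each member were taken over all 180 cells by Pearson's r of log2(TPM+1). The cells come from 4 populations, and r with genes outside the members was not computed within a population. Between Dlk1 and Meg3, r within FL HSC was 0.38. For Igf2, H19 and Dlk1 the nearest gene was Hbb-b2, with r of 0.63, 0.73 and 0.61, a beta globin present in 56 of 56 FL HSC but in only 4 BM HSC, 5 WT-MPP and 7 CD11b+CD48+SK cells. Next came Pisd-ps3 (0.61) and AY074887 (0.58) for Igf2, Mir684-2 (0.66) and Oaz1 (0.65) for H19, and Jam3 (0.57) and Pisd-ps3 (0.55) for Dlk1. Ndn was nearest to Mllt3 (0.60), a regulator of stem cell maintenance, to Cdkn1c (0.59), the imprinted inhibitor of cyclin-dependent kinases also called p57, and to Smagp (0.58). Grb10 was nearest to Apoe (0.42), Pdzk1ip1 (0.41) and Serpinf1 (0.41). Meg3 was nearest to Mir1906-1 and Mir1906-2 (0.82 each), followed by its neighbour Dlk1 (0.41). Peg3 was nearest to Klhl15 (0.49), Snord38a (0.49) and Postn (0.40), and Igf2r to Col4a2 (0.34), Hoxa6 (0.33) and Mei4 (0.32).

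Fetal liver holds hepatoblasts, stromal, endothelial and red cells, of which several make Igf2, H19 or Dlk1, so their markers were set beside the members. The FL HSC gate, which takes CD45.2+ cells and leaves out cells with lineage markers such as Ter119 of red cells, is meant to remove them. Of 15 hepatoblast markers 9 are in the table. Alb was present in 1 FL HSC, Hnf4a in 3, Apoa2 in 6, Apoa1 in 7, Afp in 7, Trf in 33 and Krt18 in 43, and Ahsg and Krt8 in none. Of these, Alb and Apoa2 were present in no cell of the other populations. Krt18 was also present in 32 BM HSC and 33 WT-MPP, Trf in 40 CD11b+CD48+SK cells and Afp in 13 of them. The summed level of the 9 markers therefore holds genes that are not particular to hepatoblasts. Their summed level in FL HSC with H19 ran from 0 to 799 TPM with a median of 121, and without H19 from 0.4 to 434 TPM with a median of 242. With Igf2 the median was 175 and without it 184, and with Dlk1 it was 117 and without it 202. The part of hepatoblast RNA in these members was not tested. Of 10 stromal markers 2 are in the table, and Col1a2 was present in 3 FL HSC and Pdgfrb in none. In the other populations Col1a2 was present in no cell, and Pdgfrb in 3 WT-MPP and 11 CD11b+CD48+SK cells. The stromal sum was 0 TPM in every FL HSC without Dlk1 and ran up to 22.7 TPM with it. Without Igf2 it ran up to 4.97 TPM and without H19 up to 9.53 TPM. The part of stromal RNA in the members was not tested.

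Endothelial markers, 10 of 10 in the table, include genes that stem cells share, and their sum had a median of 1656 TPM in FL HSC, 658 in BM HSC, 701 in WT-MPP and 506 in CD11b+CD48+SK cells. The median was 1610 in FL HSC with Igf2 and 1715 without it, and its part in the members was not tested. Lyve1 was present in 0 FL HSC, Kdr and Stab2 in 1 each, Cdh5 in 7, Tek in 29, Pecam1 in 34, Tie1 in 39, Emcn in 40, and Esam and Egfl7 in all 56. Esam was present in 35 BM HSC, 25 WT-MPP and 6 CD11b+CD48+SK cells, Tie1 in 21, 11 and 3, and Tek in 9, 4 and 2. In the same order Emcn was present in 14, 27 and 1, Pecam1 in 14, 17 and 27, and Egfl7 in 34, 39 and 47. Cdh5 was present in 1 cell of the other populations, a WT-MPP. Erythroid markers, 8 of 12 in the table, had summed medians of 4506 TPM in FL HSC, 3556 in BM HSC, 3667 in WT-MPP and 698 in CD11b+CD48+SK cells. In FL HSC the median was 4506 with Igf2 and 4647 without it, 4428 with Dlk1 and 5482 without it, and 4709 with Ndn and 3803 without it. In FL HSC the sum is mostly Hbb-b2 (mean 1805 TPM), Hbb-b1 (1426) and Car2 (1871), and in the other populations mostly Car2 (3900 in BM HSC, against 98.3 for Hbb-b1 and 15.7 for Hbb-b2). Car2 was present in every cell, Hbb-b1 in 55 FL HSC, 14 BM HSC, 14 WT-MPP and 18 CD11b+CD48+SK cells, and Epor in 23, 7, 1 and 0. The part of red cell RNA in the members was not tested. Macrophage markers, 9 of 10 in the table, had summed medians of 40.1 TPM in FL HSC and 0 in the other populations, and of 12.6 and 94.0 in FL HSC with and without Igf2. By the median they were higher in FL HSC with H19 (44.4 against 0.706 TPM without it, with ranges of 0 to 900 and 0 to 2351) and with Ndn (61.9 against 0.241, with ranges of 0 to 2351 and 0 to 900), and their part in these members was not tested. Of these markers Cd68 was present in 29 FL HSC, 7 BM HSC, 10 WT-MPP and 8 CD11b+CD48+SK cells. C1qc was present in 6 FL HSC, Csf1r in 5, C1qb and Cd5l in 3 each, C1qa, Marco and Vcam1 in 2 each and Mrc1 in 1.

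Beyond the members, 65 further imprinted genes were listed by hand, of which 48 are in the table and 34 were kept. Against FL HSC, CD11b+CD48+SK cells had 9 of 34 lower by 1 or more and 1 higher, where 20.94% and 4.016% of all kept genes were. The largest differences were in Cdkn1c (-6.33), Sgce (-2.81), a sarcoglycan, Snrpn (-1.99), a splicing factor, Cd81 (-1.75), a tetraspanin, and Trappc9 (-1.69), and the higher gene was Slc22a3 (1.81), an organic cation transporter. Against WT-MPP 5 were lower, Sgce (-1.995), Cdkn1c (-1.62), Gatm (-1.37), Phlda2 (-1.35) and Impact (-1.06), and Commd1 (1.11) was higher, where 5.011% and 19.01% of all kept genes were. Against BM HSC 13 were lower, led by Cdkn1c (-3.64), Phlda2 (-1.94), Gatm (-1.63), Cd81 (-1.56) and Sgce (-1.49), and Commd1 (1.76) was higher, where 11.79% and 13.38% of all kept genes were. The medians over the 34 genes were -0.63, -0.17 and -0.81, and those over all kept genes -0.32, 0.21 and -0.001.

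Cdkn1c followed the pattern of Ndn. It was present in 48 of 56 FL HSC (85.7%), 21 of 36 BM HSC (58.3%), 15 of 41 WT-MPP (36.6%) and 1 of 47 CD11b+CD48+SK cells (2.13%). Snrpn, which lies in the same imprinted domain as Ndn, was present in 18, 4, 1 and 0 cells, and Phlda2, a growth restrainer of the placenta, in 10, 10, 11 and 0 cells. Other imprinted genes were present throughout. Gnas, Cd81 and Tspan32 were present in every cell of the 4 populations, and the mean log2 level of Gnas, which encodes a G protein subunit, was 9.32 in CD11b+CD48+SK cells and 8.91 in FL HSC, although Cd81 was lower in the former than in FL HSC (-1.75). FL HSC against BM HSC had 4 of 34 genes higher (Cdkn1c 2.68, Commd1 2.39, Sgce 1.32, Snrpn 1.23) and 4 lower (Impact -1.70, Pon3 -1.40, Gatm -1.34, Slc22a3 -1.26), where 25.56% and 5.444% of all kept genes were. FL HSC against WT-MPP gave 7 higher and 3 lower of 34, where 33.89% and 3.077% of all kept genes were, and WT-MPP against BM HSC 1 higher and 6 lower, where 2.671% and 14.49% were.

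**Figure D5:**
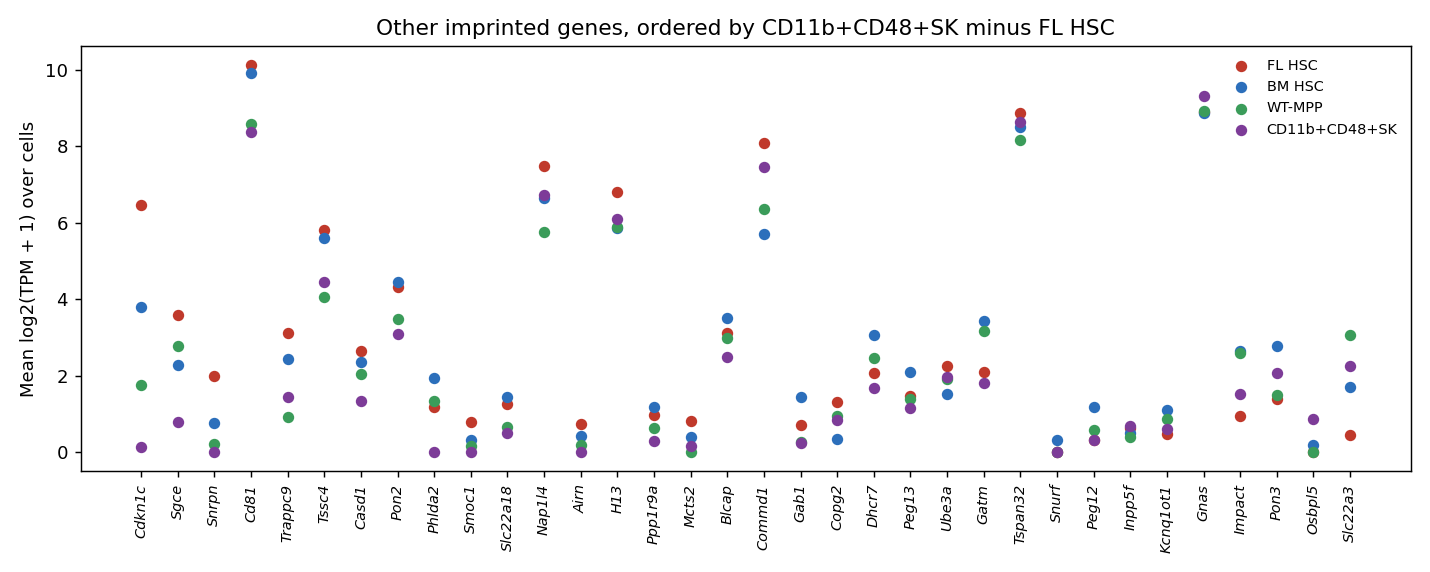
Points give the mean log2(TPM+1) over the cells of each population for the 34 other imprinted genes kept, ordered from left to right by CD11b+CD48+SK minus FL HSC. Cdkn1c at the left has the widest gap (-6.33), Slc22a3 at the right is the only gene higher by 1 or more in CD11b+CD48+SK cells (1.81), and Gnas and Tspan32 lie close together in all populations.

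Of 30 genes of the IGF system 26 are in the table and 20 were kept. FL HSC against BM HSC had 4 of 20 higher and 1 lower, near the 25.56% and 5.444% of all kept genes. The higher genes were Igf2bp2 (2.18), Igf2bp3 (1.85) and Igf2bp1 (1.78), RNA-binding proteins known from fetal tissue that bind the Igf2 message, and Igfbp4 (1.33), a secreted IGF-binding protein, and the lower one was the kinase Akt2 (-1.59). Igf2bp1 was present in 29 of 56 FL HSC and below 1 TPM in every other cell. CD11b+CD48+SK cells against FL HSC had 7 of 20 lower, where 20.94% of all kept genes were, led by Igf2bp2 (-2.97), Pik3r1 (-2.15), Igf2bp3 (-1.98), Igf2bp1 (-1.78) and Akt1 (-1.21), and none higher, where 4.016% were. Against WT-MPP they had 2 of 20 higher, Igfbp4 (3.13) and the adaptor Grb2 (1.39), and 1 lower, Pik3r1 (-1.71), a regulatory subunit of PI3 kinase, where 19.01% and 5.011% of all kept genes were. Igf1r, the receptor through which IGF2 signals, was present in 29 FL HSC, 15 BM HSC, 16 WT-MPP and 12 CD11b+CD48+SK cells.

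Of 14 genes of the Notch pathway, listed beside Dlk1, 11 are in the table and 7 were kept. FL HSC had 1 gene, Notch2, lower than BM HSC (-2.15), where 5.444% of all kept genes were, and lower than WT-MPP (-2.26), where 3.077% were, while Nrarp, a Notch target, was higher than in WT-MPP (1.29), where 33.89% were. CD11b+CD48+SK cells had Notch2 higher than FL HSC (1.85), where 4.016% were, and Nrarp lower than FL HSC (-1.11), where 20.94% were, and lower than BM HSC (-1.18), where 11.79% were. Nrarp was also lower in WT-MPP than in BM HSC (-1.37), where 14.49% were. None of the 7 genes was apart by 1 or more when CD11b+CD48+SK cells were set against WT-MPP, where 19.01% of all kept genes were higher and 5.011% lower.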

How the data were processed

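Single sorted cells were amplified with the Discover-sc WTA Kit V2, and libraries were made with the TruePrep kit. According to the submitters' processing notes and the methods, the authors used bcl2fastq, HISAT2 2.1.0, SAMtools 0.1.19 and StringTie 1.3.4 with mm10. The values are deposited as TPM, scaled by the authors to gene length and to 1000000 per cell, so read depth is unknown. The annotation and any filter on genes are not given in the sources used here. Populations were taken from sample titles, and 1 column of the table matched no sample and was not used. No cell was left out, and doublets were not sought, since each library came from 1 sorted cell.

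Values were used as log2(TPM+1), averaged over the cells of a population, with a pseudocount of 1. A gene was present at a TPM of 1 or more. The filter kept 10856 genes, those that 10% of cells had in some population. A difference of 1 or more was counted, without a test, since each population is 1 sample. Intervals are 95% exact Clopper-Pearson intervals, and a share of 0 carries the limit that 3 cells of the total would give. Both cover the counting of cells only.

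The members and gene lists were chosen with earlier results of these data known. Every member is named, with at most the 5 largest differences in each direction of the other lists and the 3 genes most like each kept member by Pearson's r. Cdkn1c, Snrpn, Phlda2, Gnas, Cd81, Tspan32, Igf2bp1 and Igf1r are given in further detail because of their values or role. Positions are from GENCODE M21 (GRCm38) and promoters and miRNAs from RefSeq (GRCm38.p6). The difference in mean log2(TPM+1) was tried on resampled WT-MPP cells in which some genes had been multiplied by a known factor. Only genes frequent at 10 TPM or more were used, which no member was in WT-MPP, so sparse genes were not covered. The filter, the shares and the pairs were not tried in this way. Python 3.11.15, numpy 2.4.6, pandas 2.3.3, scipy 1.17.1 and matplotlib 3.10.9 were used.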

Additional observations from a re-analysis of the deposited data

How the results depend on the processing

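No paired analysis was possible because the numbers in the sample titles count cells and each population is 1 sample, and for the same reason no replicate could be left out. Every alternative chosen at the outset was run. A pseudocount of 10 TPM left 2 members higher in FL HSC than in BM HSC and 2 higher than in WT-MPP (H19 and Ndn in each), 0 lower in CD11b+CD48+SK cells when these were set against WT-MPP, 3 lower against FL HSC, and 1 lower in WT-MPP than in BM HSC. On that scale 9.61%, 14.3%, 1.58%, 7.12% and 3.41% of all kept genes were past the same difference, in the same order. A pseudocount of 0.1 TPM, and the cells of the shared range of genes present, each made 1 member (Grb10) lower in FL HSC than in BM HSC. With these settings 11.9% and 15.7% of all kept genes were lower. The shared range left 1 member (Ndn) lower in CD11b+CD48+SK cells against WT-MPP and 1 lower in WT-MPP than in BM HSC (Grb10). Leaving out the highest cell of each member also left 1 (Ndn) lower in CD11b+CD48+SK cells against WT-MPP. Meg3 was lost from the members lower in CD11b+CD48+SK cells than in BM HSC, leaving 2, with a pseudocount of 10 TPM, in the shared range, after scaling cells by the median ratio and without the highest cell. With log2 of the mean TPM, 5 members were lower in CD11b+CD48+SK cells than in BM HSC, where 27.7% of all kept genes were lower. On that scale the Grb10 difference between FL HSC and WT-MPP was reversed to -0.18. At 10 TPM the median number of members per cell was 1 in BM HSC and 0 in WT-MPP, and Dlk1 and Meg3 were together in 8 FL HSC. With any TPM above 0 counted, 4 members were in 10% of WT-MPP and 1 (Mest) in 10% of CD11b+CD48+SK cells. The cause of these changes was not tested. The other 88 values of counts and medians stayed within 1.5 times. These and the values of single members include runs without the filter on genes, which leave the members unchanged and could not differ. A count could also stay while its genes changed. On mean TPM, FL HSC against WT-MPP kept 6 members higher with Peg3 in place of Grb10. FL HSC against BM HSC had 5 higher, without Ndn and with Mest and Peg3. Of the values of single members 448 stayed within a difference of 1 or within the interval of their share, 91 moved by more, and 1 difference of 1 or more, that of Grb10, was reversed. Smaller differences also changed sign, such as Igf2r in FL HSC against BM HSC, from 0.12 to -0.54 in the shared range.

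The median difference of all kept genes depended on the scale. For CD11b+CD48+SK cells against WT-MPP it was 0.21 on mean log2 values, 0.19 after scaling cells by the median ratio, -0.32 on mean TPM (10.3% higher and 24.1% lower) and -0.06 in the shared range (11% higher and 15.8% lower). For FL HSC against BM HSC it was 0.31, 0.30, -0.13 (11.8% higher and 19.3% lower) and 0.02 (19.5% higher and 15.7% lower). Shares of all genes past a difference of 1 are therefore tied to this scale. Without read counts, a 0 cannot be set against a depth, and members seen in few cells cannot be ordered.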

Other observations

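Genes that maintain imprints, a list of 17 written by hand of which 14 were kept, were set beside the members. In CD11b+CD48+SK cells, compared with WT-MPP, 4 of 14 were higher by 1 or more in mean log2(TPM+1) and none lower, where 19.01% and 5.011% of all kept genes were. They were Uhrf1 (2.08), which recruits the maintenance methyltransferase to newly copied DNA, Dnmt1 (1.77), that methyltransferase, Trim28 (1.47), a co-repressor at imprinted regions, and Smchd1 (1.24). Compared with BM HSC, where 13.38% of all kept genes were higher and 11.79% lower, 3 were higher, Dnmt1 (1.77), Uhrf1 (1.37) and Dnmt3b (1.13), and Zfp445 (-1.16), a zinc finger protein that binds imprinted regions, was lower. The median over the 14 genes was 0.38 against WT-MPP and 0.52 against BM HSC, where all kept genes had 0.21 and -0.001.

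The de novo methyltransferases were highest in FL HSC. Dnmt3a was present in 51 FL HSC, 10 BM HSC, 12 WT-MPP and 20 CD11b+CD48+SK cells, and Dnmt3b in 45, 9, 12 and 22. FL HSC had 6 of the 14 genes higher than BM HSC and none lower, where 25.56% and 5.444% of all kept genes were, led by Dnmt3b (3.93), Dnmt3a (3.56), Trim28 (1.72), Uhrf1 (1.61) and Dnmt1 (1.12). FL HSC against WT-MPP also gave 6 higher and none lower, where 33.89% and 3.077% of all kept genes were, led by Dnmt3b (3.26), Dnmt3a (3.04), Uhrf1 (2.33), Trim28 (2.23) and Smc3 (1.55). CD11b+CD48+SK cells had 4 lower than FL HSC, where 20.94% of all kept genes were lower, Dnmt3a (-2.92), Dnmt3b (-2.79), Smc3 (-1.88) and Arid4b (-1.12). Arid4a (1.20) was the 1 gene of 14 higher in WT-MPP than in BM HSC, where 2.671% of all kept genes were. DNA methylation was not measured, and no test between populations was possible.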
